A study of Rattus norvegicus with 10 samples.

Results

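Genes that carry lipids between the cells of the brain were examined in the hippocampus of transgenic rats given BT-11: the apolipoproteins Apod and Apoe, the membrane transporters Abca1, Abca2, Abca7 and Abcg1, the lipase Lpl, and the lipoprotein receptors Vldlr and Lrp8. Members were taken by gene symbol from the table of raw read counts, and rows of one symbol were summed. Of the 9 genes, 8 had rows in that table of 13670 symbols, and all 8 were among the 12000 genes that passed the filter on low counts. Lrp8, a receptor of reelin and apolipoprotein E, is not analysed here. Tissue was the left hippocampus, 1 library from each of 10 TgF344-AD rats that were female by their labels and 11 months old. TgF344-AD is a Fischer 344 line known to carry mutant human APP and presenilin transgenes under a mouse prion promoter. All 10 rats carried the transgenes. One group of 5 ate ordinary rodent chow and is called untreated. The other 5 ate chow with BT-11, an oral small molecule known as a ligand of LANCL2, for 6 months from the age of 5 months. All rats were anaesthetized with ketamine and xylazine and perfused with cold buffered saline before the tissue was frozen.

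Neurons obtain much of their cholesterol from glia. Astrocytes load it onto apolipoprotein E through ABC transporters such as ABCA1 and ABCG1, whose genes are switched on by the sterol-sensing LXR receptors, and neurons take the particles up through receptors of the LDL receptor family. Apolipoprotein D is a small lipocalin that binds lipids and is made by oligodendrocytes and other glia, ABCA2 is a transporter of oligodendrocytes and neurons, and lipoprotein lipase frees fatty acids from lipoproteins. APOE, ABCA7 and ABCA1 are also known as human risk genes of Alzheimer's disease.

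Deposited estimated counts summed to between 13721673 and 19700443 per library. Levels are given as CPM, counts relative to library size after TMM scaling. Markers of excitatory hippocampal neurons were present in every library, with all 11 listed genes tested and a summed level from 4694 to 6368 CPM. Markers of choroid plexus stood apart in untreated library 4 and BT-11 library 3, where the mean of log2(CPM + 1) over the 8 tested markers of 12 listed was 5.21 and 5.04, against 0.97 to 2.49 in the other libraries. The remaining 4, Folr1, Otx2, Kcnj13 and Prlr, had rows but did not pass the filter. With edgeR's quasi-likelihood test 0 of 12000 genes, 0%, passed at a Benjamini-Hochberg adjusted 0.05. At an unadjusted p under 0.05 there were 715, or 5.96%, of which 411 were lower with BT-11 (3.42%) and 304 higher (2.53%). DESeq2 called 8 of 10358 genes with an adjusted p, which is 0.0772%, and 7 of them, 0.0676%, were lower. Untreated and BT-11 libraries did not overlap for 101 genes, 0.842%: 65 lower (0.542%) and 36 higher (0.3%). The red cell gene Hbb stood apart in BT-11 library 4, at 93.8 CPM. The remaining BT-11 libraries held 2.78 to 19.2 CPM and untreated libraries 2.45 to 4.36 CPM.

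The members differed widely in level. On a scale of CPM per kilobase of transcript, Apoe was far above the others at 3217 ± 530.4 in untreated rats and 3200 ± 522 with BT-11 (SD, n = 5 each), which ranks it as gene 4 of 12000. Apod followed with a level of 213.6 ± 30.7 and 146.3 ± 23.1 CPM per kilobase, and Abca2 with 62.2 ± 4.68 and 52.4 ± 6.7 CPM per kilobase. Lpl and Abcg1 lay close together, at 21.3 ± 9.48 and 25.8 ± 0.914 CPM per kilobase in untreated rats, and their libraries overlapped in both groups. Vldlr had a level of 16.6 ± 2.11 CPM per kilobase in untreated rats, Abca1 one of 5.89 ± 0.699 and Abca7, the lowest, one of 3.28 ± 0.511. The order is that of the mean over all 10 libraries, with Lpl before Abcg1. Apart from Lpl and Abcg1, no neighbours in this order overlapped in either group. Lpl and Vldlr, which are not neighbours in it, did overlap in untreated rats. The lowest untreated Lpl library was at 12.4 CPM per kilobase, below the lowest Vldlr library of either group, a BT-11 library at 13.8.

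**Figure D1:**
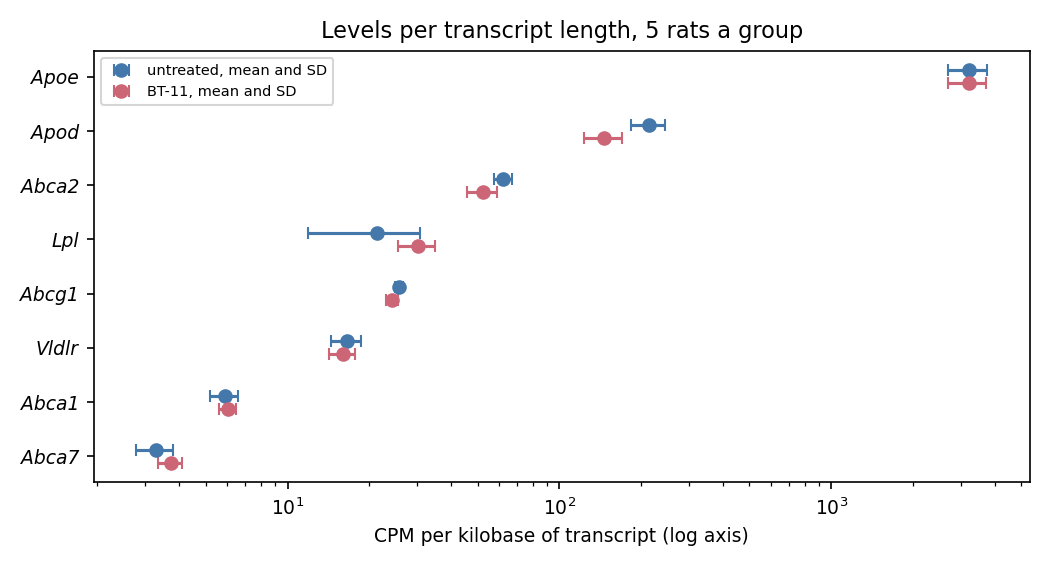
Level of each member in CPM per kilobase of transcript on a log axis, with mean and SD of 5 untreated rats (blue) and 5 rats given BT-11 (red). Apoe stands at 3217 and Abca7 at 3.28 in untreated rats, and the groups lie farthest apart relative to their SD for Apod.

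Apoe, which encodes the main lipid carrier of the brain, did not differ detectably. Its levels in untreated libraries 1 to 5 were 4188, 3464, 4483, 3130 and 3201 CPM. In BT-11 libraries 1 to 5 they were 2869, 3197, 4009, 4146 and 4151 CPM. Both groups spread over nearly the same range, with 3 libraries high and 2 low under BT-11 and the highest and the second lowest library of all in the untreated group. The means were 3693 ± 608.4 and 3674 ± 599.4 CPM (SD, n = 5 each). The log2 fold change of BT-11 over untreated was -0.0073 ± 0.126 (SE; edgeR, adjusted p = 0.997), and an interval of 1.96 SE to either side ran from 0.838 to 1.18 times the untreated level.

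Apoe was also the only member with several transcript rows, 5 in all, on chromosome 1 between 80612894 and 80616821 of rn6, minus strand. A single row held 82.1% of its counts. The division among such similar rows is an estimate. The 3 rows that start at 80615705 together held 98.7% of the counts, the row starting 1116 bases upstream held 0.175% and the one starting 1295 bases downstream of that first start held 1.12%. In the RefSeq table of build GRCr8 the Apoe starts lie 1117 and 1296 bases from the first. The 250 bases before the middle of these starts are shown because that start carries nearly all Apoe counts, with capitals on GGGCGG, the GC box, on either strand.
Apoe (chr1:88484700-88484949, - strand): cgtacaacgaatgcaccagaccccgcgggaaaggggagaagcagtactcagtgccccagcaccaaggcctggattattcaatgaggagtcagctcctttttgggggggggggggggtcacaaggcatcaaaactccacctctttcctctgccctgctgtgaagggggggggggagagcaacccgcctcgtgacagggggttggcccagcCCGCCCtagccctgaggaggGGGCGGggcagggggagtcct
There are 2 GC boxes, the nearer one beginning 21 bases before the start. GGGCGG was found on either strand in 30.5% of 33360 distinct promoter windows of the same length. The share of counts at the middle start was 98.8% ± 0.24 in untreated rats and 98.7% ± 0.14 with BT-11 (SD, n = 5 each), a difference smaller than either SD. Of all Apoe counts, the largest row at that start held 82.9% ± 1.08 in untreated rats and 81.3% ± 1.15 with BT-11. The next row held 15% ± 0.99 and 16.3% ± 1.14 (SD, n = 5 each). These estimated row shares were not tested.

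Apod (chromosome 11, 72705204 to 72726264 of rn6, plus strand) had the lowest fold change of the members. Untreated libraries 1 to 5 had levels of 179.8, 180.6, 222.4, 150.6 and 172.2 CPM. BT-11 libraries 1 to 5 had levels of 111.1, 101.6, 151.3, 135 and 121.5 CPM. The 4 other BT-11 libraries lay below every untreated library, and BT-11 library 3 exceeded untreated library 4 by less than 1 CPM, so the groups overlapped by this pair; 338 of all genes, 2.82%, had at least 4 BT-11 libraries below every untreated one. The means were 181.1 ± 26.1 and 124.1 ± 19.6 CPM (SD, n = 5 each), the BT-11 level being 0.685 times the untreated one, with an interval of 1.96 SE from 0.584 to 0.804. With a log2 fold change of -0.55 ± 0.118 (SE), Apod ranked as gene 3 of 12000 by unadjusted p (0.000498) but did not pass edgeR's test over all genes (adjusted p = 0.8). DESeq2 gave the same fold change and an adjusted p of 0.0269. A lower level in whole tissue can come from fewer cells of a type or from less RNA per cell, and these data cannot tell them apart.

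Among the transporters, Abca2 (chromosome 3, 2648865 to 2668771, plus strand), which moves sterols and sphingolipids in the endolysosomal compartment, followed the same order of libraries in part. Its untreated levels were 462.2, 483, 562, 495.4 and 492.4 CPM in libraries 1 to 5. Its BT-11 levels were 356.8, 367.4, 461.9, 451.3 and 465.8 CPM. Again 4 BT-11 libraries lay below every untreated one, by little in libraries 3 and 4, while BT-11 library 5 exceeded untreated library 1. The means were 499 ± 37.5 and 420.6 ± 53.8 CPM (SD, n = 5 each), a log2 fold change of -0.25 ± 0.0893 (SE; edgeR, adjusted p = 0.809). Apod and Abca2 were the 2 of 8 members with an unadjusted p under 0.05 (0.000498 and 0.0166), both lower with BT-11; of all genes 3.42% were lower at that level.

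The 250 bases before the annotated starts of Apod, Abca2 and Abca1 are shown because the first pair of genes had the smallest p of the members and Abca1 is the textbook LXR target. Capitals mark TATAAA and ACAAAG, a core of SOX motifs, in Apod, GGGCGG in Abca2, and in Abca1 TATAAA, the E-box CACGTG and a DR4 element, the repeat read by LXR receptors, searched as NGGTNA, any 4 bases and NGGTCA. Both strands were searched. The sequences are from RefSeq, build GRCr8.
Apod (chr11:82935970-82936219, + strand): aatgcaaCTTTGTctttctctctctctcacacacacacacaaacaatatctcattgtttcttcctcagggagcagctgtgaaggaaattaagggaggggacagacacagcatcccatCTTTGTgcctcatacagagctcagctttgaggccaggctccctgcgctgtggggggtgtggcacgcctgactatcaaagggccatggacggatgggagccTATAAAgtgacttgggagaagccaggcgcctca
Abca2 (chr3:28642534-28642783, + strand): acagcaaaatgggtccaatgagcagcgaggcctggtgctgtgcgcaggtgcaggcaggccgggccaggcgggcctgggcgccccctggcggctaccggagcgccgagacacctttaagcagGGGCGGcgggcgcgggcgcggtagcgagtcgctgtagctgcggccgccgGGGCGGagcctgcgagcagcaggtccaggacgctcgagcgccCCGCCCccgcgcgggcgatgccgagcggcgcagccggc
Abca1 (chr5:72596474-72596723, - strand): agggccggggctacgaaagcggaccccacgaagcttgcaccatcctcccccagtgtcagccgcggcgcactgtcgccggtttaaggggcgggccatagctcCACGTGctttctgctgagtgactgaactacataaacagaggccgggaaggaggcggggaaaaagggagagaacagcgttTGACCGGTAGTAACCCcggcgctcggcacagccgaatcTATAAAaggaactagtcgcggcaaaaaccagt
The Apod and Abca2 windows shared none of the motifs searched: Apod had a TATA box 33 bases before the start and 2 SOX motifs, Abca2 had 3 GC boxes, and their GC contents were 52.4% and 76.4%. TATAAA was present in 12.9% and ACAAAG in 16.3% of all windows. The DR4 element of Abca1 began 70 bases before the start, and this pattern was in 70 of 33360 windows, or 0.21%. CACGTG was in 5.61% of windows. A sterol element, searched as TCACNCCAC and present in 0.977% of windows, matched in none of the members' windows. Windows were found for 6 members, and Lpl and Abcg1 had none.

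The LXR-driven exporters Abca1 and Abcg1 did not differ detectably. Abca1 (chromosome 5, 69860747 to 69952467, minus strand), which loads cholesterol onto apolipoproteins, ranged from 35.9 to 47.9 CPM in untreated libraries and from 36.9 to 44.3 CPM with BT-11. All BT-11 libraries lay inside the untreated range, and the log2 fold change was 0.036 ± 0.0845 (SE; edgeR, adjusted p = 0.943), an interval of 1.96 SE from 0.914 to 1.15 times the untreated level. Abcg1 (chromosome 20, 9743269 to 9840490, plus strand), which passes cholesterol on to lipid-bearing particles, varied least of the members, with a coefficient of variation of 3.55% in untreated rats and 4.82% with BT-11. Its untreated libraries 1 to 5 had levels of 90.7, 96.5, 88.8, 90 and 88.7 CPM. Its BT-11 libraries had levels of 91.3, 80.8, 84.7, 83.4 and 88.3 CPM. Here 4 BT-11 libraries lay below every untreated library and library 1 above all but untreated library 2, yet the difference was small, a log2 fold change of -0.086 ± 0.0531 (SE; edgeR, adjusted p = 0.816). Abca7 (chromosome 7, 12742515 to 12761262, minus strand), a transporter of phospholipids expressed by microglia and neurons, ranged from 17.3 to 25.9 CPM untreated and from 20.8 to 26.9 CPM with BT-11. Of its BT-11 libraries 4 of 5 lay above the untreated mean, with a log2 fold change of 0.18 ± 0.109 (SE; edgeR, adjusted p = 0.812), and of 0.12 without untreated library 2.

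**Figure D2:**
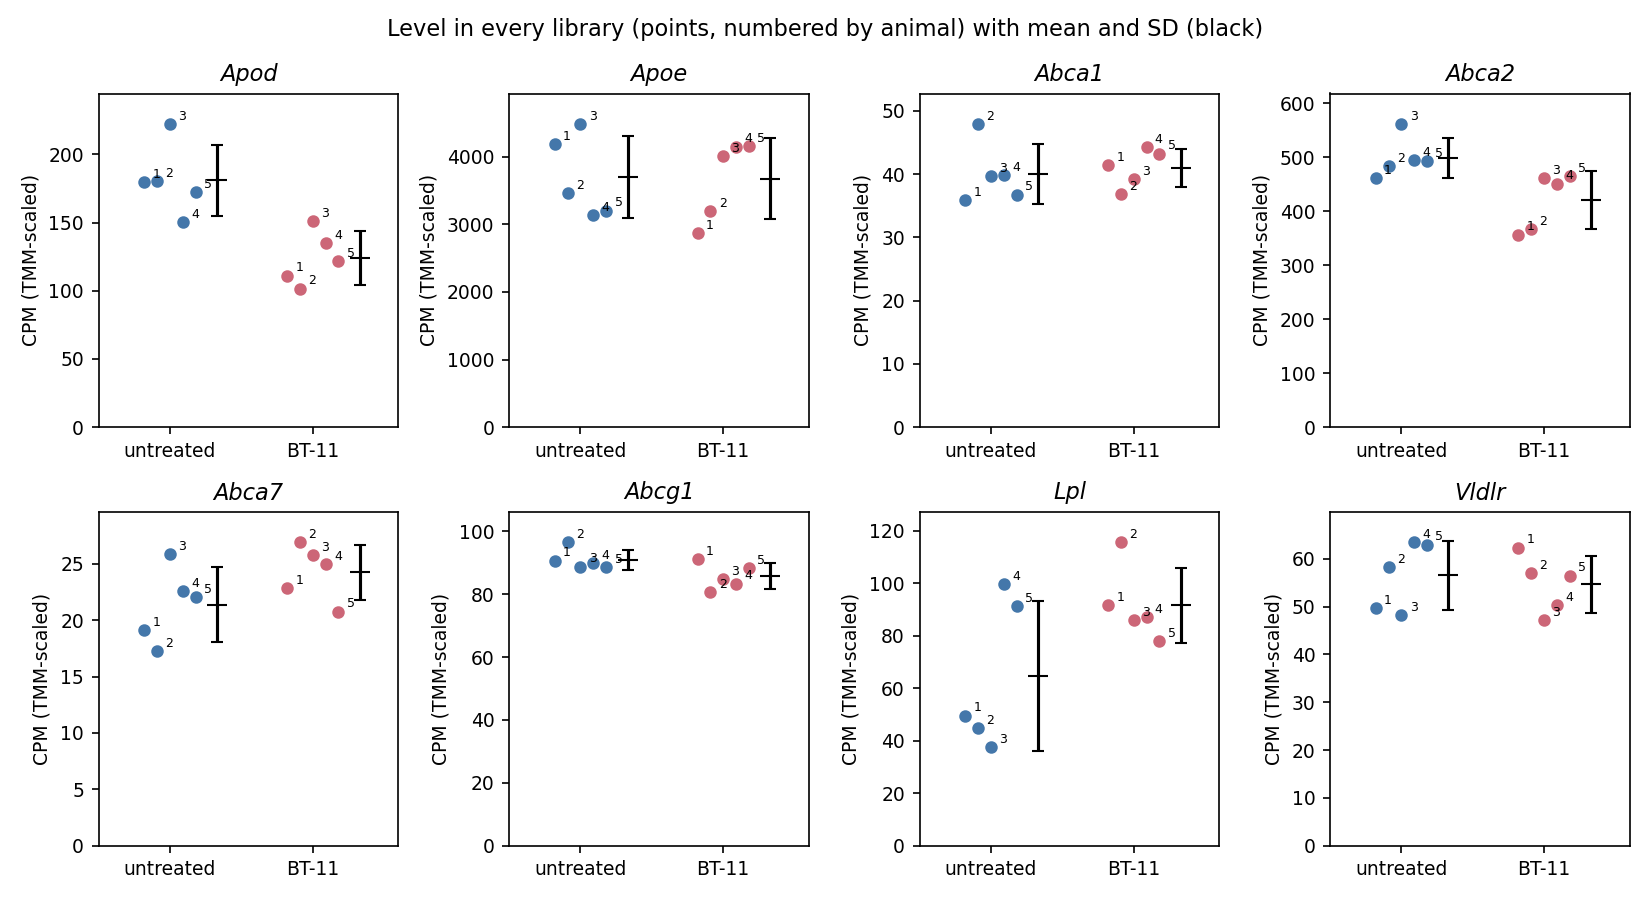
CPM of the 8 members in every library, untreated in blue and BT-11 in red, numbered by animal, with mean and SD in black; each axis starts at 0. Untreated Apod spans 150.6 to 222.4 CPM and BT-11 Apod 101.6 to 151.3 CPM, while untreated Lpl splits into 3 low and 2 high libraries.

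Lpl (chromosome 16, 22537687 to 22561488, minus strand), the lipoprotein lipase that in brain is expressed by neurons, microglia and oligodendrocyte precursors, was the most variable member in untreated rats, with a coefficient of variation of 44.4%; with BT-11 it was 15.6%, below that of Apoe (16.3%) and Apod (15.8%). Untreated libraries 1, 2 and 3 had levels of 49.6, 44.8 and 37.7 CPM, and untreated libraries 4 and 5 of 99.8 and 91.5 CPM. BT-11 libraries 1 to 5 had levels of 91.6, 115.6, 86.1, 87.1 and 77.9 CPM. All BT-11 libraries stood in the range of the high untreated pair or near it, and none came near the low 3. The means were 64.7 ± 28.7 and 91.7 ± 14.3 CPM (SD, n = 5 each), so that the untreated mean describes none of its libraries. Its log2 fold change was 0.50 ± 0.242 (SE; edgeR, unadjusted p = 0.0595, adjusted p = 0.809). Leaving out untreated library 3 lowered it to 0.36 and leaving out untreated library 4 raised it to 0.71. Fitted beside the level of myelin markers it was 0.022 ± 0.267 (SE).

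Vldlr (chromosome 1, 245237736 to 245269206, plus strand), a receptor that takes up apolipoprotein E particles and, with Lrp8, receives the reelin signal, had levels from 48.3 to 63.4 CPM in untreated libraries and from 47.2 to 62.3 CPM with BT-11. The ranges nearly coincided, and the log2 fold change was -0.048 ± 0.0975 (SE; edgeR, adjusted p = 0.931). Its lowest library was BT-11 library 3, one of the 2 rich in choroid plexus markers, and its highest was untreated library 4, the other one; without both the log2 fold change was 0.047. With the myelin level as a covariate it was -0.27 ± 0.106 (SE; edgeR, adjusted p = 0.864).

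**Figure D3:**
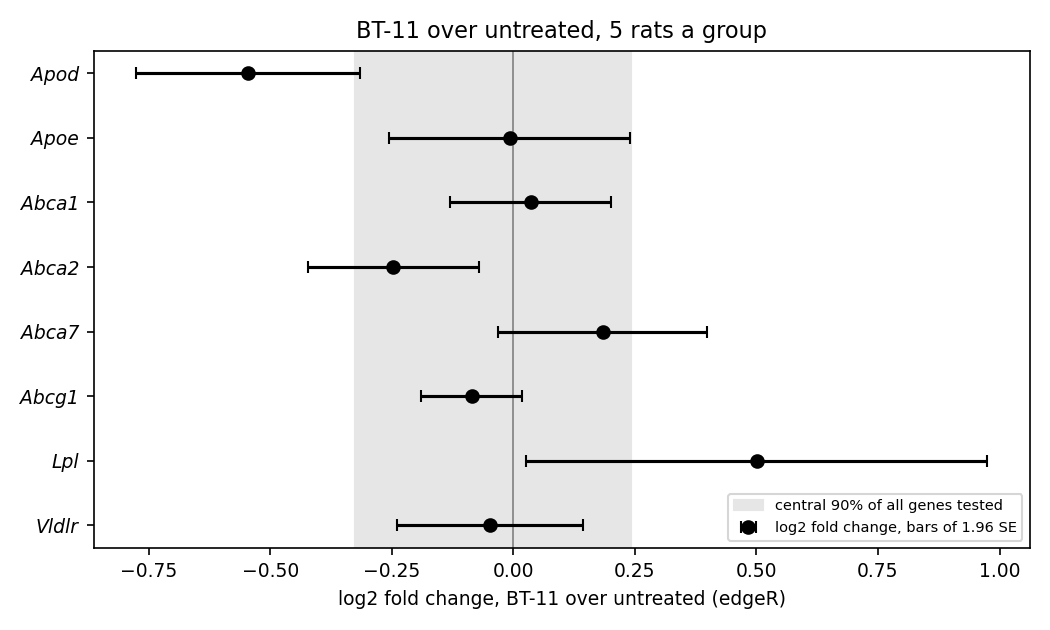
Log2 fold change of BT-11 over untreated for the 8 members (points) with bars of 1.96 SE, over the central 90% of all 12000 genes (grey, -0.324 to 0.241). Apod lies below the grey band at -0.55 and Lpl above it at 0.50, and the other 6 lie inside it. The bars are not edgeR's test: that of Lpl starts at 0.027, although its unadjusted p by edgeR was 0.0595.

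Over the 8 members the median log2 fold change was -0.028, with 3 higher and 5 lower, against -0.00016 over all genes, and 0 of 8 passed edgeR's test. Markers of mature oligodendrocytes were lower in the same libraries as Apod. All 19 listed markers were tested and lower with BT-11. By edgeR 15 had an unadjusted p under 0.05, beside 3.42% of all genes in that direction, and 0 an adjusted one. The markers had a median log2 fold change of -0.45. Their summed level ran from 9398 to 17396 CPM in untreated libraries and from 6885 to 10145 CPM with BT-11. Untreated library 3 was highest and BT-11 library 2 lowest both in Apod and in the mean log2 level of this list, and untreated library 3 was also highest in Apoe and Abca2. Since the list was chosen with results of these libraries known, it is no independent support. With its level as a covariate the log2 fold change of Apod was -0.19 ± 0.0771 (SE; edgeR, adjusted p = 0.864), that of Abca2 was -0.013 ± 0.0782 (SE; edgeR, adjusted p = 0.984) and that of Apoe turned to 0.32 ± 0.116 (SE; edgeR, adjusted p = 0.864). The covariate itself was 7.06 ± 0.240 in untreated rats and 6.62 ± 0.259 with BT-11 (mean log2(CPM + 1), SD, n = 5 each). Fits beside it, here and for other genes, therefore cannot tell its part from that of treatment. The part of the myelin level in these results was not tested further. Other lists were also lower in part: interneurons in 10 of 10 genes (median -0.20), oligodendrocyte precursors in 9 of 10 (median -0.11) and leptomeninges and fibroblasts in 10 of 12 (median -0.12). By edgeR 2, 2 and 1 of these genes had an unadjusted p under 0.05, beside 3.42% of all genes in that direction, and 0 an adjusted one. Choroid plexus markers were lower in 7 of 8 genes (median -0.32), and the 1 gene at an unadjusted p under 0.05 by edgeR was higher. That median turned on the choroid-rich libraries: it was -3.21 without BT-11 library 3 and 1.54 without untreated library 4. Endothelial cells were lower in 9 of 12 (median -0.048) and pericytes and smooth muscle in 7 of 10 (median -0.073). Markers of excitatory hippocampal neurons were higher in 7 of 11 genes (median 0.11). By edgeR 2 of them had an unadjusted p under 0.05, beside 2.53% of all genes in that direction. The 2 tested red cell genes were also higher. The log2 fold change was 2.95 ± 0.801 for Hbb and 2.81 ± 0.839 for Hba1 (SE; edgeR, unadjusted p = 0.00289 and 0.00538, adjusted p = 0.8 each). The part of these lists in the results was not tested. Markers of astrocytes, the main source of Apoe, had 7 of 14 genes higher and 7 lower, with a median log2 fold change of 0.019 and a summed level from 9627 to 12123 CPM untreated and from 9564 to 11422 CPM with BT-11. Microglial markers, 7 of 16 higher, had a median of -0.010 and summed to 560.5 to 809.3 CPM untreated and 534.5 to 684.9 CPM with BT-11.

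**Figure D4:**
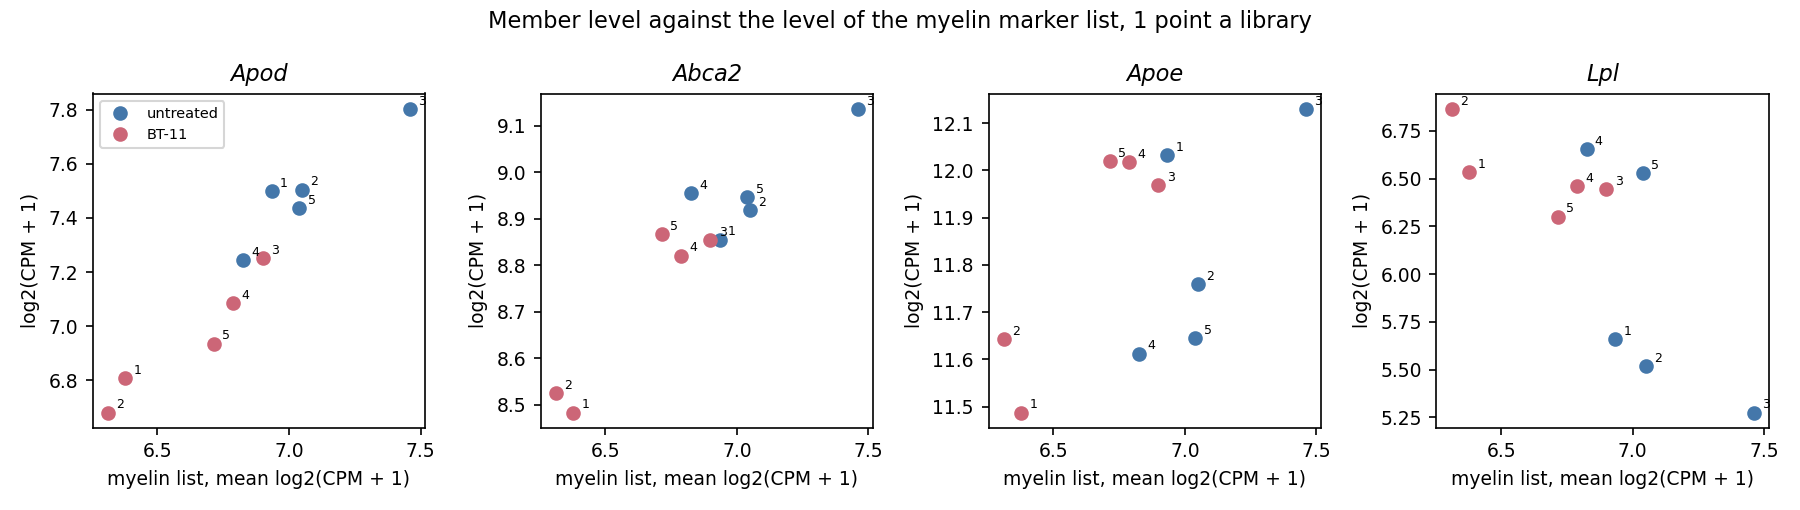
Log2(CPM + 1) of Apod, Abca2, Apoe and Lpl against the mean log2(CPM + 1) of the myelin marker list, 1 point a library, untreated in blue and BT-11 in red, numbered by animal. Untreated library 3 is highest on the myelin axis at 7.46 and BT-11 library 2 lowest at 6.31; Apod lies near a single rising line through both groups, and untreated library 3 is the lowest in Lpl.

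Whether genes of like role changed unequally was tested on the difference of their log2(CPM + 1) in each library, with two-sided exact permutation tests over 252 assignments, adjusted over 4 tests. A further planned test needed Lrp8 and was not made. Apod minus Apoe was -4.53, -4.25, -4.33, -4.37 and -4.21 in untreated libraries 1 to 5. In BT-11 libraries it was -4.68, -4.96, -4.72, -4.93 and -5.08. All 5 BT-11 libraries lay below all 5 untreated ones. The mean difference was -0.54 on the log2 scale, BT-11 minus untreated, with the smallest p this permutation test can give (0.00794, adjusted p = 0.0317). The pair was chosen with earlier results of these data known, so this p describes the separation of these libraries and is no independent evidence of a change. Without both choroid-rich libraries it was -0.58 and the adjusted p of the exact permutation test 0.0571, where p itself was at the smallest possible value, 0.0286.

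For the transporters, Abca2 minus Abca1 was 3.61 ± 0.184 in untreated rats and 3.32 ± 0.165 with BT-11 on the log2 scale (SD, n = 5 each). The difference of -0.29 had an exact permutation p of 0.0397 and did not pass after adjustment (0.0741). Apod minus the mean log2 level of the myelin list was 0.44 ± 0.0823 untreated and 0.33 ± 0.0785 with BT-11 (SD, n = 5 each). That difference of -0.10 did not pass (exact permutation p = 0.0873, adjusted 0.0873), although 5 of 5 BT-11 libraries lay below the untreated mean. Abca2 minus the myelin list differed the other way, by 0.19 on the log2 scale from 1.90 ± 0.161 to 2.09 ± 0.101 (SD, n = 5 each), and did not pass either (exact permutation p = 0.0556, adjusted 0.0741).

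The genes whose levels over the 10 libraries were most like each member were found among 11992 other genes by Pearson's r of log2(CPM + 1). These values are the highest of many and are given as a description. For Apod they were Cnp, a myelin enzyme (r = 0.982) and Evi2a (0.975), and 12 of the 19 myelin markers were among its 100 likest genes. For Abca2 they were Cntn2, an adhesion molecule of myelinated axons (r = 0.97), Cldn11, the tight junction protein of myelin (0.969), and Fam83d (0.967), with 10 of the 19 myelin markers among the 100 likest. Apoe was likest Fam89b (r = 0.977), Gpr137 (0.975) and Scand1 (0.972), and 1 of 14 astrocyte markers was among its 100 likest genes. Lpl was likest Mgat4c (r = 0.989), Neto1, an auxiliary subunit of kainate receptors (0.986), and Kcnq5, a potassium channel of neurons (0.985). Neto1 had a level of 127 CPM untreated and 188.6 CPM with BT-11, and none of the pathway or marker lists had a gene among the 100 likest of Lpl. Vldlr was likest Cds2, a phospholipid enzyme (r = 0.967), Plxna2, a semaphorin receptor (0.951), and Gnpda2 (0.947). Abca7 was likest Tmem25 (r = 0.945), Man1b1 (0.936) and Foxm1 (0.916). Abcg1 was likest Olfm3 (r = 0.911), Usp2 (0.882) and Map3k4 (0.881), and Abca1 was likest Tmpo (0.895), RGD1310553 (0.894) and Scaf4 (0.861), with 3 of 14 astrocyte markers among its 100 likest genes.

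Around these members, 7 lists of other genes of lipid carriage held 134 genes, of which 101 were tested. None passed an adjusted p of 0.05 (smallest 0.8, edgeR). The median log2 fold change of the 101 was -0.0094. At an unadjusted p under 0.05 by edgeR there were 5 of 101, or 4.95%, beside 5.96% of all genes. All 5 were lower with BT-11, where of all genes 3.42% were lower and 2.53% higher at that level. Abca8a, Lcat, Npc1 and Fabp3 were among the 5.

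Of the other apolipoproteins and particle proteins 8 of 18 listed were tested, 3 higher and 5 lower, with a median log2 fold change of -0.092. Clu, the abundant glial chaperone also called apolipoprotein J, had levels of 1159 ± 156 CPM untreated and 1038 ± 109.1 CPM in BT-11 rats (SD, n = 5 each), a log2 fold change of -0.16 ± 0.0966 (SE). Apobr, a receptor of apolipoprotein B, had a log2 fold change of -0.28 ± 0.134 (SE), and Apoa5, at 0.817 and 0.568 CPM, one of -0.51 ± 0.34 (SE). Apoa1 and Apob had rows but did not pass the filter on low counts.

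In the transporter families 11 of 19 listed genes were tested, 6 higher and 5 lower, with a median of 0.013. Abca8a, a transporter with the smallest p of this list, had levels of 97.7 ± 10.1 CPM untreated and 81.7 ± 2.46 CPM in BT-11 rats (SD, n = 5 each), a log2 fold change of -0.26 ± 0.0712 (SE; edgeR, unadjusted p = 0.00323), and -0.12 fitted beside the myelin level. Abcd2, a peroxisomal fatty acid transporter, was at 0.12 ± 0.0717 (SE) on the log2 scale and the low gene Abcg3l1 at 0.58 ± 0.313 (SE).

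No receptor stood out. Of 24 listed members of the LDL receptor family and other lipoprotein receptors 20 were tested, 11 higher and 9 lower, with log2 fold changes from -0.15 to 0.17, a median of 0.0048 and 0 at an unadjusted p under 0.05. Sorcs3, a sorting receptor of neurons, was at 0.17 ± 0.0816, Lrp10 at -0.14 ± 0.093 and Lrp4, the agrin receptor, at -0.11 ± 0.087 (SE). Of 15 tested chaperones, adaptors and signalling partners of these receptors 8 were higher and 7 lower. Reln, the reelin ligand of Vldlr, varied from animal to animal, with 98.9 ± 30.9 CPM untreated and 79.8 ± 21.9 CPM in BT-11 rats (SD, n = 5 each). Its log2 fold change was -0.31 ± 0.224 (SE), and that of the kinase Src was 0.099 ± 0.0565 (SE).

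Among lipases and lipid transfer proteins 11 of 18 were tested, 6 higher and 5 lower, with a median of 0.0061. Lcat, the enzyme that esterifies cholesterol on lipoproteins, had levels of 15.3 ± 3.61 CPM untreated and 10.8 ± 2.98 CPM in BT-11 rats (SD, n = 5 each), a log2 fold change of -0.50 ± 0.193 (SE; edgeR, unadjusted p = 0.023), which turned to 0.0663 beside the myelin level. Sel1l, which is needed for Lpl to leave the endoplasmic reticulum, was at 0.18 ± 0.103 (SE), and the hormone-sensitive lipase Lipe at -0.22 ± 0.148 (SE). Gpihbp1, the anchor of Lpl on capillaries, had rows but did not pass the filter on low counts. Sterol regulators were balanced, 8 higher and 8 lower of 16 tested, with a median of -0.0021 and 0 at an unadjusted p under 0.05. Srebf2, the master factor of cholesterol synthesis, was at 0.087 ± 0.0524, its protease Mbtps1 at -0.068 ± 0.0508 and its retention factor Insig2 at 0.15 ± 0.112 (SE).

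Lipid uptake, storage and intracellular handling had 20 of 22 genes tested, 6 higher and 14 lower, with a median log2 fold change of -0.091. Npc1, which exports cholesterol from lysosomes, had levels of 103.7 ± 6.09 CPM untreated and 85.1 ± 10.1 CPM in BT-11 rats (SD, n = 5 each), and its groups did not overlap, as for 65 of 12000 genes (0.542%) in that direction. Its log2 fold change was -0.29 ± 0.0819 (SE; edgeR, unadjusted p = 0.00416), and -0.0734 fitted beside the myelin level. Fabp3, a fatty acid-binding protein, had levels of 19.2 ± 2.01 and 15 ± 1.95 CPM (SD, n = 5 each), a log2 fold change of -0.35 ± 0.106 (SE; edgeR, unadjusted p = 0.00565). Acsl6, a fatty acid ligase of neurons, was at 0.097 ± 0.0507 (SE). All genes of these lists that are named with a fold change were named for having the smallest p of their list.

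**Figure D5:**
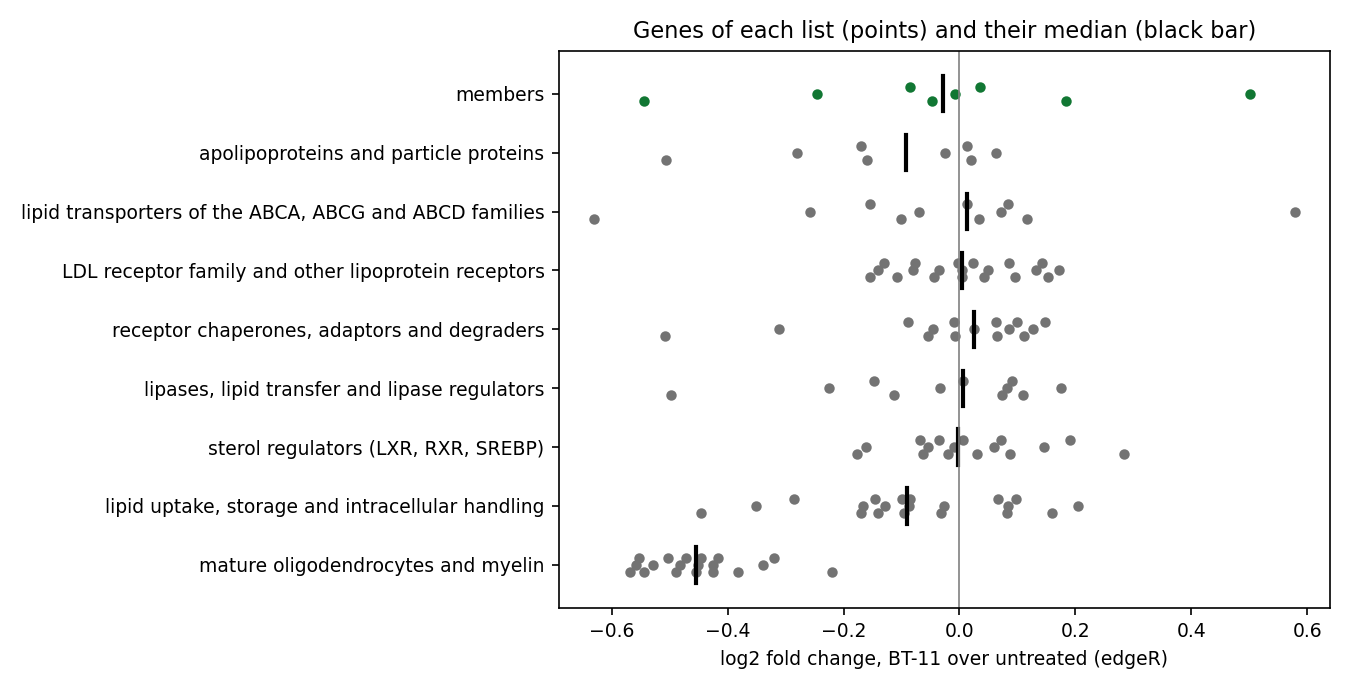
Log2 fold change of BT-11 over untreated for each tested gene (points) of the members, the 7 lists of lipid carriage and the myelin marker list, with the median of each as a black bar. List medians of lipid carriage lie between -0.092 and 0.025, and all 19 myelin markers lie below 0.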

How the data were processed

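The members and gene lists were chosen with earlier results of these data known. The submitters' processing notes name STAR 2.7.9a, DESeq2, Partek, bcl2fastq 2.19.1.403 and build rn6, without roles; which program counted reads is not given. Libraries were strand-specific KAPA mRNA libraries, per the labels' protocols. The authors deposited a table of estimated counts for 14806 transcript rows, 85.4% of the values whole within 1e-06, and a normalized signal. That deposited signal equals the counts times a factor per library, between 0.822 and 1.15. Such a factor corrects depth and leaves tissue makeup in place. A transcript length per row, deposited with the counts, gave CPM per kilobase.

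Rows were summed by symbol and rounded. The planned design assumed whole counts per gene. Low genes were removed with filterByExpr in edgeR 4.0.16, libraries were scaled by TMM, and BT-11 was compared with untreated by the quasi-likelihood test, two-sided, with Benjamini-Hochberg adjustment over 12000 genes and a threshold of 0.05. Each SE is the fold change (log2) over the root of its F statistic. Animals are separate, so p-values measure the spread between these rats, and group labels are those of the treatment. Alternatives were DESeq2 1.42.0, limma 3.58.1, other scalings and filters, covariates including 1 surrogate variable of sva 3.50.0, and left-out libraries. R 4.3.3, Python 3.11.15 and matplotlib 3.10.9 were used, and the test was checked on simulated counts. In these it recovered 72% of genes changed 1.5-fold and 96.9% of genes changed 2-fold, and called 8 unchanged genes. The simulated counts were drawn for each gene on its own, without shared differences in tissue makeup. Named were all members, the 3 genes of smallest p in each pathway list and the 3 genes most like each member, except 2 genes that are not reported here. RefSeq's GRCr8 table held 13147 of the 13670 symbols, through which older list symbols were matched. Promoter windows are 250 bases from RefSeq.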

Additional observations from a re-analysis of the deposited data

Results flagged for a closer look

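In a group of 5, a library was singled out when its gap to the nearest other exceeded 0.71 of the group's range, which chance gives in about 1 of 20 groups, and 2 of 66 groups were singled out. Abcg1 stood at 96.5 CPM in untreated library 2, where the other untreated libraries lay between 88.7 and 90.7 CPM. Without that library the log2 fold change of Abcg1 was -0.063. Insig2 stood at 13.3 CPM in BT-11 library 1, where the other BT-11 libraries lay between 11.3 and 11.8 CPM.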

How the results depend on the processing

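DESeq2 called 8 genes, and Apod was one of them (log2 fold change -0.55, adjusted p = 0.0269), while in the other 21 alternatives 0 genes were called, among them all that leave out a library (0 to 0). Of 176 values of the members under alternatives, 167 kept direction and side of the threshold. The log2 fold change of Apoe turned to 0.32 with the myelin level as covariate and ran from -0.0645 to 0.0685 when single libraries were left out, being above 0 without untreated library 1 or 3 or BT-11 library 1 or 2. That of Abca1 ran from -0.0034 (without untreated library 1) to 0.11 and that of Vldlr from -0.10 to 0.0038 (without BT-11 library 3). Vldlr turned to 0.0469 without both choroid-rich libraries, a setting chosen after seeing the data. The cause was not tested. Apod ran from -0.62 to -0.46 over left-out libraries and from -0.68 to -0.19 over other settings. Of the differences between log2 levels, Apod minus Apoe kept -0.54 under the replicate block, where the exact permutation p could be no less than 0.0625 (adjusted 0.125), and lost its call at -0.58 without the choroid-rich libraries, where fewer samples set the smallest p. Left-out libraries gave it -0.59 to -0.48. Abca2 minus Abca1 ran from -0.37 to -0.23 and passed without untreated library 2, and Abca2 minus the myelin list ran from 0.14 to 0.25 and passed without untreated library 4 (adjusted p = 0.0317 each, exact permutation tests). With the replicate number as a block the log2 fold change of Apod was -0.55 (edgeR, adjusted p = 0.667) and 0 genes were called. Same-numbered libraries did not deviate together (correlations from -0.353 to 0.121), and no label says that the numbers pair the animals. Libraries also differ in tissue makeup, so these correlations cannot decide whether the animals were paired. Among the named pathway genes, with the myelin level as covariate, log2 fold changes turned to 0.0897 for Clu, 0.0278 for Lrp10, 0.11 for Lrp4, 0.0663 for Lcat, -0.10 for Sel1l, 0.13 for Lipe and -0.0629 for Insig2. Genes at an unadjusted p under 0.05 numbered 373 without BT-11 library 2, 1129 without untreated library 4 and 1435 without both choroid-rich libraries. Scalings moved the median of all genes by no more than -0.0142 on the log2 scale.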
